A study of Homo sapiens with 6 samples.

Results

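Keratins are the proteins of the intermediate filaments of epithelial cells. The genes described here were all entries of the deposited count table that were typed as coding genes and had a symbol made of KRT, a number and at most a letter from A to C. This rule, which uses names and no measured value, gave 55 genes of 60480 identifiers, of which 29 encode type I (acidic) and 26 encode type II (basic to neutral) keratins. In GENCODE v44 on hg38, 28 of them lie on chromosome 17 and 27 on chromosome 12.

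A keratin filament is built from pairs of a type I and a type II protein, and each kind of epithelium makes its own pairs. *KRT8* with *KRT18* and *KRT19* is the set of simple, single-layered epithelia such as glandular mucosa, whereas the stratified squamous lining of the normal esophagus makes *KRT5* with *KRT14* in its basal layer and *KRT4* with *KRT13* above it. *KRT6*, *KRT16* and *KRT17* are known for their induction in wounded or hyperproliferating skin, and other members belong to hair, nail and the root sheath of the hair.

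The data were RNA-seq of OE-19, a human cell line from adenocarcinoma of the esophagogastric junction (AEG), grown in RPMI1640 medium with fetal bovine serum and penicillin/streptomycin. There were 3 libraries labelled as a control knockdown with shControl, whose columns in the table are named Puro (control), and 3 of cells with an shRNA against *IGF2BP3* (IGF2BP3 KD), an RNA-binding protein that reads the m6A mark, and the comparison asks which transcripts differ when its level is lowered. The labels and methods do not say whether the 3 IGF2BP3 KD libraries carry the same shRNA or come from separate cultures, so the p-values measure only the spread between these libraries, which may be technical. All 6 libraries come from a single line, which limits what they represent.

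Total counts per library lay between 53424071 and 69989087. *IGF2BP3* itself stood at 108 ± 2.92 CPM (counts scaled to library size; mean ± SD, n = 3) in the control libraries and at 13.3 ± 0.996 CPM in the IGF2BP3 KD libraries, a log2 fold change of -3.03. Of 7 markers of columnar epithelium, all passed the filter on low counts, and their summed level was 2513 to 2523 CPM in the control and 2721 to 2762 CPM in the IGF2BP3 KD libraries. Of 7 squamous markers, 4 passed, their list summing to 129 to 146 CPM and 153 to 158 CPM, nearly all of it from *SERPINB5*. *TP63*, the defining factor of squamous epithelium, was at 0.194 ± 0.118 CPM and 0.134 ± 0.118 CPM. Fibroblast markers summed to 21.2 to 24.6 CPM and 29.9 to 34.4 CPM, almost wholly from *COL1A1*, with *COL1A2* and *LUM* at 0 in every library. Leukocyte markers summed to 2505 to 2734 CPM and 2542 to 2615 CPM through *LYZ* and *CD68*, with *CD3E* and *HLA-DRA* at 0 throughout, and the 5 endothelial markers summed to at most 0.581 CPM. Called higher in IGF2BP3 KD were 5 of 7 tested columnar markers, 1 of 4 squamous (*SERPINB5*), 1 of 3 fibroblast (*COL1A1*) and 1 of 3 leukocyte markers (*CD68*), where 9.87% of all genes tested were called higher, and the part of this in the keratin results was not tested.

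The coding sequences show what the members share. Keratins end their central rod with a conserved stretch, and a search for its protein pattern (tyrosine, any 2 residues, a pair of leucines, glutamate) in the main transcript of each of the 21 keratins with enough counts to be tested found it in 20, with no match in *KRT80*. The 30 bases of the transcript strand from that region are shown for the 3 most abundant members and for 3 called members of stratified epithelium. The search pattern itself fixes part of the bases they share. The stretch therefore does not show how alike the whole transcripts are. Capitals mark the 17 bases that all 6 share (hg38, transcripts of GENCODE v44).
KRT8, chr12:52898684-52898713, minus strand: ACCTACaGgaagCTGCTgGAgGgcgagGAg
KRT18, chr12:52952305-52952334, plus strand: ACCTACcGccgcCTGCTgGAaGatggcGAg
KRT19, chr17:41523782-41523811, minus strand: ACCTACcGcagcCTGCTcGAgGgacagGAa
KRT16, chr17:41610336-41610365, minus strand: ACCTACcGccgcCTGCTgGAgGgcgagGAt
KRT6A, chr12:52488333-52488362, minus strand: ACCTACcGcaagCTGCTgGAgGgtgagGAg
KRT4, chr12:52807649-52807678, minus strand: ACCTACcGcaaaCTGCTgGAgGgcgagGAg

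The 3 *KRT6* genes are nearer still. Their coding sequences are each 1695 bases long, and *KRT6A* differs from *KRT6B* at 43 bases (97.5% identity) and from *KRT6C* at 35 (97.9%), while *KRT6B* and *KRT6C* differ at 26 (98.5%). Such differences are what tells reads of the 3 genes apart within the coding sequence. Coding bases 693 to 722 were chosen as the stretch of this length, within an exon, where *KRT6A* and *KRT6B* differ most. They are thus not typical of the whole coding sequence. Capitals mark the 6 positions at which the 3 genes are not all alike.
KRT6A, chr12:52491555-52491584, minus strand: acggggCcgCctggactcAgagctCagaGG
KRT6B, chr12:52450439-52450468, minus strand: acggggTcgTctggactcGgagctGagaAA
KRT6C, chr12:52472099-52472128, minus strand: acggggCcgCctggactcGgagctGagaAA

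Sharing was also measured as the share of 100-base windows of the main transcript that occur unchanged in a transcript of another gene. It was 18.2% for *KRT6A*, 24.4% for *KRT6B*, 31.4% for *KRT6C*, 30.3% for *KRT81* and 27.6% for *KRT86*. It was 7.12% for both *KRT8* and *KRT16* and 0 for *KRT18*, *KRT19*, *KRT80* and *KRT4*. How the counting treated reads that match several genes is not stated, so values of the *KRT6* genes, *KRT81* and *KRT86* are uncertain.

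OE-19 cells had the keratin set of a simple epithelium. Levels between genes are compared as CPM per kb of the main transcript. In the control libraries *KRT8* stood at 1472 ± 10.5, its filament partner *KRT18* at 821 ± 11.0 and *KRT19*, the smallest keratin, at 707 ± 11.3 CPM per kb (SD, n = 3). The next gene, *KRT80*, a type II keratin found in many epithelia, was at 36.9 ± 1.64 CPM per kb, 19.2 times below *KRT19*. It was followed by *KRT16* (33.8 ± 0.981) and *KRT6B* (28.9 ± 1.93), and by *KRT10* (8.76 ± 0.741), a keratin of the upper epidermis, and *KRT23* (8.36 ± 0.473). Of the 20 neighbouring pairs in this order of the 21 tested keratins, 10 did not overlap between control libraries, among them every pair from *KRT8* down to *KRT6B* and *KRT10*. The other 10 overlapped, among them *KRT10* with *KRT23*, *KRT6A* with *KRT6C*, and each pair from *KRT4* downwards.

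**Figure D1:**
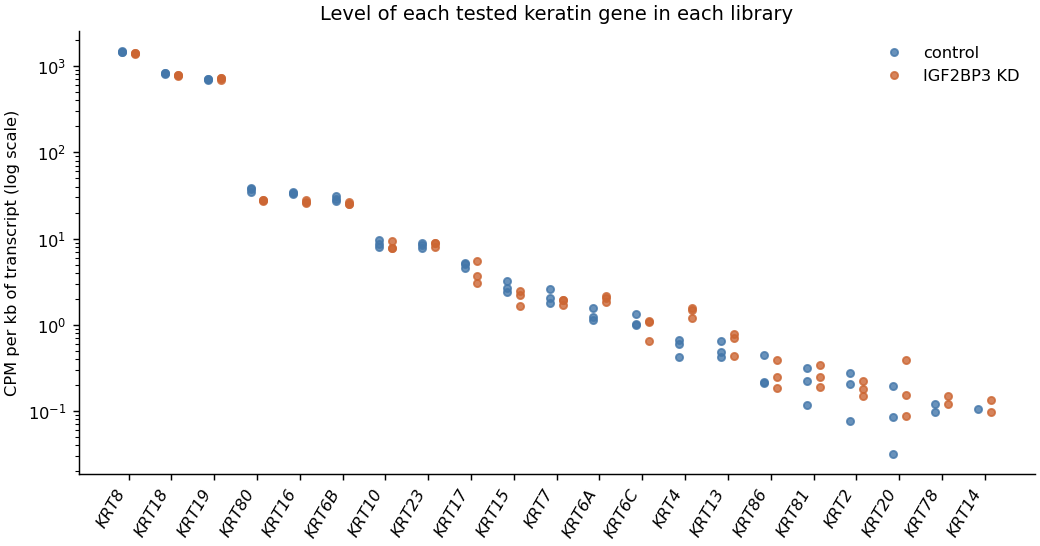
Level of each of the 21 tested keratins in each library, in CPM per kb of the main transcript on a log scale, ordered by the mean of the 3 control libraries (blue; IGF2BP3 KD libraries in orange; libraries at 0 are not drawn). *KRT8*, *KRT18* and *KRT19*, with control means of 707 CPM per kb and more, stand apart from all the others, whose control means are 36.9 and less.

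The 3 leading genes held 93.4% to 93.7% of all keratin counts in the control and 94.4% to 94.5% in the IGF2BP3 KD libraries. Per kb, the type II keratins summed to 0.962 to 0.979 times the type I keratins in the control libraries and to 0.954 to 0.957 times in the IGF2BP3 KD libraries, so the levels of both types were close to equal in every library. Keratins together made up 0.499% to 0.511% of all counts in the control and 0.487% to 0.50% in IGF2BP3 KD, which overlapped. After scaling between libraries they summed to 5098 ± 60.1 CPM and 4894 ± 54.0 CPM, and these sums did not overlap. In bulk RNA, fewer cells of a type and less RNA per cell cannot be told apart.

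The basal squamous pair was close to absent. *KRT5* had 0, 0 and 2 counts in control replicates 1 to 3 and 3, 0 and 0 in IGF2BP3 KD replicates 1 to 3. *KRT14* had 0, 12 and 0 counts against 12, 10 and 0, so 3 of 6 libraries held none, and it was not called. Of the 55 keratins, 16 had 0 counts in every library and 14 had between 1 and 9 in their highest library. A count of 0 still allows up to 3 counts in a library of the same depth, by counting error alone. Another 4 reached 10 counts in a library without passing the filter. These were *KRT3* of the cornea (0, 0 and 0 against 0, 16 and 11), *KRT77* (0, 6 and 0 against 11, 17 and 0), and the hair keratins *KRT85* (0, 8 and 10 against 0, 0 and 0) and *KRT32* (0, 4 and 11 against 3, 0 and 0). None of the 9 keratins of the inner root sheath and companion layer, and 2 of the 17 of hair and nail, passed the filter.

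Of the 21 keratins tested with edgeR's quasi-likelihood test, 4 were called lower in IGF2BP3 KD (*KRT80*, *KRT16*, *KRT8* and *KRT18*) and 2 higher (*KRT4* and *KRT6A*) at a Benjamini-Hochberg adjusted p under 0.05. Over all 19778 genes tested, 10.6% were called lower and 9.87% higher. The groups did not overlap for 7 of the 21, or 33.3%, against 35.8% of all genes tested. The median log2 fold change was -0.06 over the tested keratins and 0.01 over all genes tested. By class, 2 of the 6 simple-epithelium keratins were called lower and none higher, and of 13 tested keratins of stratified epithelium 2 were called lower and 2 higher. By type, the 2 higher genes were both type II, and the 4 lower genes were split evenly between the types. The numbers of calls are small, and no class is shown to differ from another.

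**Figure D2:**
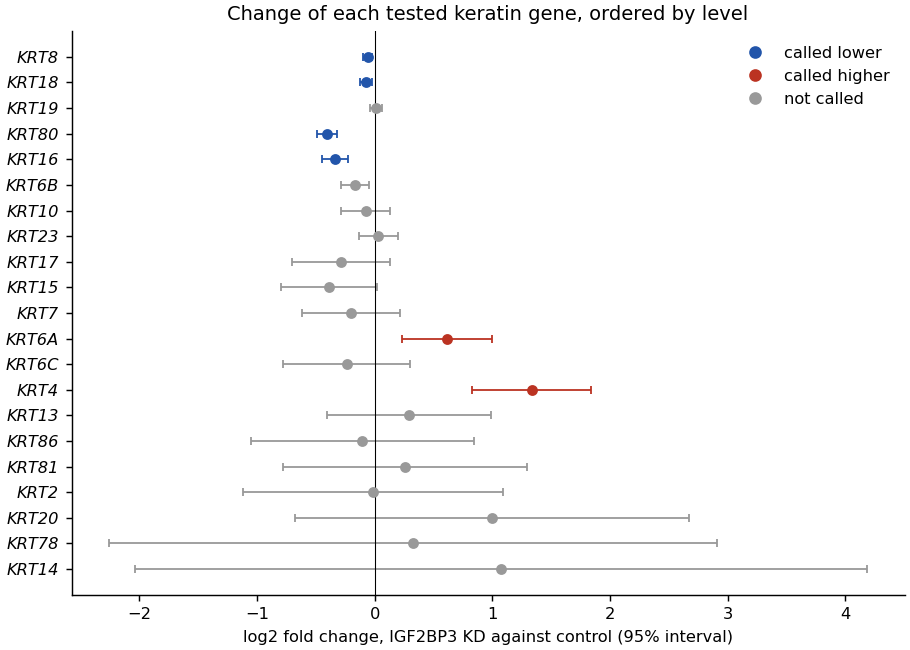
Log2 fold change of each tested keratin, IGF2BP3 KD against control, ordered from the highest to the lowest level per kb. Bars are approximate 95% intervals derived from the F statistic of edgeR's quasi-likelihood test. Intervals are narrow for the abundant genes and wide at the bottom, from -0.10 to -0.02 for *KRT8* and from -2.25 to 2.91 for *KRT78*.

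*KRT80* showed the smallest p of the keratins. It was at 136, 148 and 145 CPM in control replicates 1 to 3 and at 108, 106 and 108 CPM in IGF2BP3 KD replicates 1 to 3. All control libraries lay above all IGF2BP3 KD libraries, and the latter spanned a narrower range. The mean went from 143 ± 6.36 to 108 ± 1.18 CPM, and the fitted level fell by 24.7%, a log2 fold change of -0.41 (SE 0.04, edgeR's quasi-likelihood test, Benjamini-Hochberg adjusted p = 3.0e-05). The gene spans chr12:52168996-52192014 on the minus strand, where no exon of another gene overlaps it. It shares no 100-base window, and it stayed called whichever of the 6 libraries was left out (-0.45 to -0.39).

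*KRT16*, the type I keratin that pairs with *KRT6*, was at 55.3, 57.8 and 54.7 CPM in the control and at 43.9, 42.8 and 46.2 CPM in the IGF2BP3 KD libraries. The groups did not overlap, and each varied little. Its fitted level fell by 20.9%, with a log2 fold change of -0.34 (SE 0.05, edgeR's quasi-likelihood test, Benjamini-Hochberg adjusted p = 7.6e-04), and it was called whichever library was left out. It lies at chr17:41609778-41615899 on the minus strand. Its 6 annotated pseudogenes held 1.37% to 4.53% of the counts of the gene and pseudogenes together, and with these counts added the log2 fold change was -0.36.

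Of the *KRT6* genes, *KRT6A* was called higher and *KRT6B* and *KRT6C* were not called, and differences between them were not tested. *KRT6B* held most of the *KRT6* counts, 92.2% ± 0.809 in the control libraries, and was at 62.4, 65.9 and 71.2 CPM in the control and 58.6, 61.0 and 58.3 CPM in the IGF2BP3 KD libraries. These did not overlap, but with a log2 fold change of -0.16 (SE 0.05) the gene missed the threshold (edgeR's quasi-likelihood test, Benjamini-Hochberg adjusted p = 0.0565). It passed with DESeq2 (0.0142), with at least 10 counts in every library (0.0316), over coding genes alone (0.0475) and without control replicate 1 (0.0195). It did not pass without control replicates 2 (0.107) or 3 (0.204, with a log2 fold change of -0.12) or IGF2BP3 KD replicates 1 (0.145), 2 (0.0798) or 3 (0.149). Nor did it pass in edgeR's test with no filter on low counts (0.0910), RLE scaling (0.05001) or the replicate block (0.0573).

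*KRT6A* was at 2.61, 2.86 and 3.65 CPM in the control and at 4.67, 4.98 and 4.28 CPM in the IGF2BP3 KD libraries, from 179 to 214 counts and from 252 to 309 counts. Every IGF2BP3 KD library was above every control library. The log2 fold change was 0.61 (SE 0.17, 95% interval 0.23 to 0.99, edgeR's quasi-likelihood test, Benjamini-Hochberg adjusted p = 0.0283). *KRT6A* made up 3.88%, 4.02% and 4.68% of the *KRT6* counts in the control libraries and 7.10%, 7.26% and 6.68% in the IGF2BP3 KD libraries. *KRT6C* was at 2.34, 2.28 and 3.12 CPM against 2.48, 2.58 and 1.51 CPM, and was not called.

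The call of *KRT6A* was lost in most fits with 1 library left out, while its log2 fold change stayed at 0.51 to 0.76 in these fits. With DESeq2 the gene passed (adjusted p = 0.0150). In edgeR's quasi-likelihood test it also passed with RLE scaling (0.0292), the replicate block (0.0440), at least 10 counts in every library (0.0213) and coding genes alone (0.0263). It passed without control replicate 3 (0.0199) but not without control replicates 1 (0.0956) or 2 (0.0964) or IGF2BP3 KD replicates 1 (0.0762), 2 (0.100) or 3 (0.0515), nor with no filter on low counts (0.0787), all adjusted p of the same edgeR test. With the 3 *KRT6* genes summed, so that it does not matter to which of them a counted read was given, the log2 fold change was -0.12 and was not called, *KRT6B* carries the sum, and reads left uncounted because they match several genes would be missing from it.

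*KRT4*, the type II keratin of the upper layers of esophageal squamous epithelium, had the highest rise among the called keratins. It was at 1.29, 0.919 and 1.42 CPM in the control and at 2.59, 3.33 and 3.19 CPM in the IGF2BP3 KD libraries, from 88, 64 and 83 counts and 140, 207 and 201 counts. The lowest IGF2BP3 KD library lay above the highest control library. The level was 2.52 times as high, a log2 fold change of 1.33 (SE 0.23, 95% interval 0.83 to 1.84, edgeR's quasi-likelihood test, Benjamini-Hochberg adjusted p = 0.0017), and the gene was called whichever library was left out (1.17 to 1.46). It lies at chr12:52806549-52814116 on the minus strand, overlaps no exon of another gene and shares no 100-base window. Even so raised, it stood at 1.42 ± 0.183 CPM per kb, far below *KRT8*. Its partner *KRT13* had 57, 51 and 66 counts against 65, 83 and 47, which overlapped, with a log2 fold change of 0.29 that was not called. Whether *KRT4* and *KRT13* differed in their change was not tested.

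**Figure D3:**
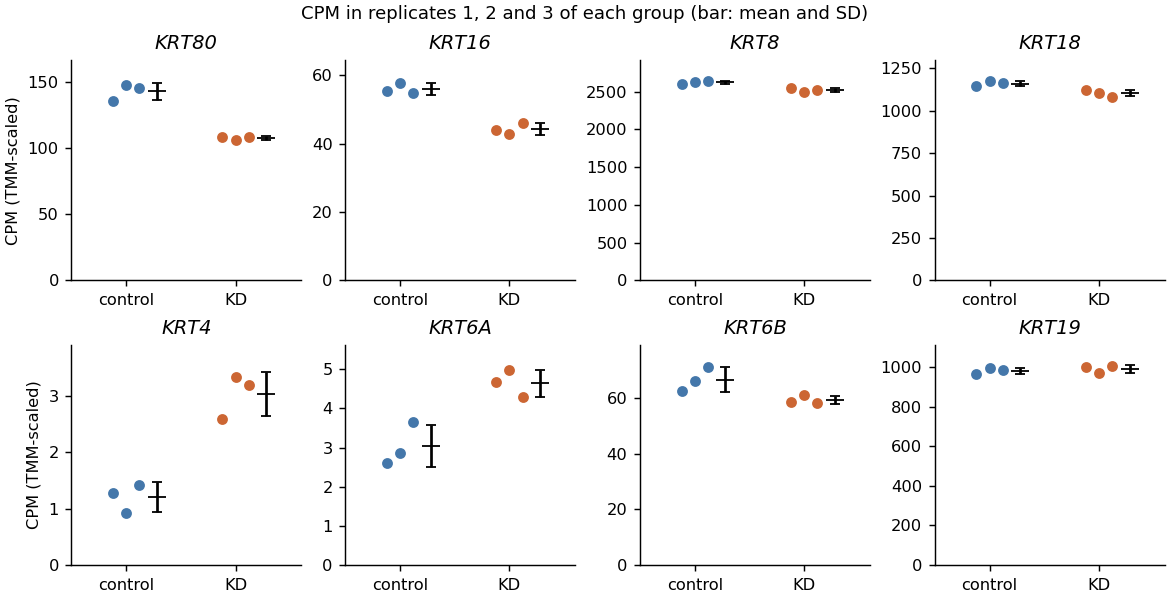
CPM of 8 keratins in replicates 1 to 3 of the control (blue) and of IGF2BP3 KD (orange), each panel on its own axis from 0, with the mean and SD of each group in black. The groups are separate for the first 7 genes, by a wide margin for *KRT80* and *KRT16* and by a narrow one for *KRT8*, and they overlap for *KRT19*.

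The major filament genes moved little. *KRT8* was at 2606, 2631 and 2642 CPM in the control and at 2555, 2495 and 2524 CPM in the IGF2BP3 KD libraries, and *KRT18* at 1144, 1174 and 1164 CPM against 1121, 1105 and 1083 CPM. For both genes all control libraries were above all IGF2BP3 KD libraries. The fitted level fell by 3.89% for *KRT8* (log2 fold change -0.06, SE 0.02, edgeR's quasi-likelihood test, Benjamini-Hochberg adjusted p = 0.0382) and by 4.96% for *KRT18* (-0.07, SE 0.02, adjusted p = 0.0324). These calls hold by a small margin in this test, while DESeq2 gave adjusted p = 0.0019 for *KRT8* and 8.6e-04 for *KRT18*. The scaling factors between libraries were 0.992 to 0.996 in the control and 1.001 to 1.011 in the IGF2BP3 KD libraries. The size of the falls of *KRT8* and *KRT18* therefore depends in part on the scaling. In edgeR's test both passed with RLE scaling (0.0277 and 0.0253), but not with no filter (0.0887 and 0.0661) or the replicate block (0.0896 and 0.0642). With 1 library left out, the log2 fold changes stayed at -0.07 to -0.05 for *KRT8* and -0.09 to -0.06 for *KRT18*. *KRT8* passed without control replicate 1 but not without control replicates 2 (adjusted p = 0.0627) or 3 (0.115) or IGF2BP3 KD replicates 1 (0.0571), 2 (0.126) or 3 (0.0933). *KRT18* passed without control replicate 1 or IGF2BP3 KD replicate 1, but not without control replicates 2 (0.0840) or 3 (0.0955) or IGF2BP3 KD replicates 2 (0.0841) or 3 (0.120).

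*KRT19*, the other type I gene at this level, was at 964, 994 and 988 CPM against 1001, 970 and 1004 CPM. Its groups overlapped, and the 95% interval of its log2 fold change ran from -0.04 to 0.06. Per kb, the *KRT18* to *KRT19* ratio was 1.16 to 1.17 in the control and 1.06 to 1.12 in the IGF2BP3 KD libraries, which did not overlap. The *KRT8* to *KRT18* ratio was 1.77 to 1.80 and 1.79 to 1.84, which overlapped.

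*KRT8* and *KRT18* are neighbours on chromosome 12 (52897187 to 52949954 on the minus strand and 52948871 to 52952906 on the plus strand), and their annotated exons overlap by 525 bases. The library kit keeps the strand, but the strand setting of the counting is not stated, so reads in that overlap could belong to either gene.

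Among the other simple keratins, *KRT7* of ducts and glands was at 2.90 to 4.26 CPM in the control and 2.79 to 3.19 CPM in IGF2BP3 KD, *KRT23* at 17.3 to 19.4 and 17.6 to 19.6 CPM, and *KRT20*, a keratin of gastric and intestinal lining, had 24, 4 and 9 counts against 38, 17 and 10. All 3 overlapped between groups and were not called. The 95% interval for *KRT20* ran from -0.68 to 2.67, which leaves a change in either direction possible at this depth.

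Of the remaining keratins of stratified epithelium, *KRT10* was at 17.2 to 20.4 CPM against 16.5 to 20.1 CPM and was not called. *KRT17*, which is induced together with *KRT6* and *KRT16* in wounded skin, was at 6.88, 8.0 and 7.60 CPM against 8.25, 4.66 and 5.52 CPM. IGF2BP3 KD replicate 1 was thus the highest of the 6 libraries and the other 2 the lowest. Without that library the log2 fold change of *KRT17* was -0.56 (edgeR's quasi-likelihood test, Benjamini-Hochberg adjusted p = 0.0305), against -0.29 and no call with all libraries. The 8 pseudogenes of *KRT17* held 8.19% to 19.9% of the counts of gene and pseudogenes together. With these counts added and all libraries kept, the log2 fold change was -0.21 and was not called.

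*KRT15*, a keratin of basal cells, was at 4.08 to 5.46 CPM against 2.86 to 4.17 CPM, with a log2 fold change of -0.39 whose 95% interval ran from -0.80 to 0.02. *KRT2* had 13, 35 and 40 counts against 24, 34 and 23, and *KRT78* had 0, 20 and 21 against 0, 22 and 28. The hair keratins *KRT81* (42, 16 and 25 against 26, 23 and 42 counts) and *KRT86* (69, 33 and 29 against 47, 35 and 26) overlapped as well. None of these 5 genes was called. The 95% intervals ran from -1.12 to 1.09 for *KRT2*, -2.25 to 2.91 for *KRT78*, -0.78 to 1.29 for *KRT81* and -1.05 to 0.84 for *KRT86*. For these 4 genes a change in either direction remains possible at this depth.

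The stratified class as a whole summed to 305 ± 13.4 CPM in the control and to 251 ± 1.36 CPM in IGF2BP3 KD, or 5.98% and 5.13% of the keratin counts. *KRT80*, *KRT16* and *KRT6B* carry this sum. *KRT80* was counted in this class although it is found in many epithelia, and it alone went from 143 to 108 CPM. Without it the class summed to 162 ± 7.19 and 143 ± 0.363 CPM, which did not overlap (153.7 to 166.8 against 143.1 to 143.7 CPM). The *KRT16* to *KRT6* ratio per kb was 0.974 to 1.14 and 0.866 to 1.00, which overlapped.

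**Figure D4:**
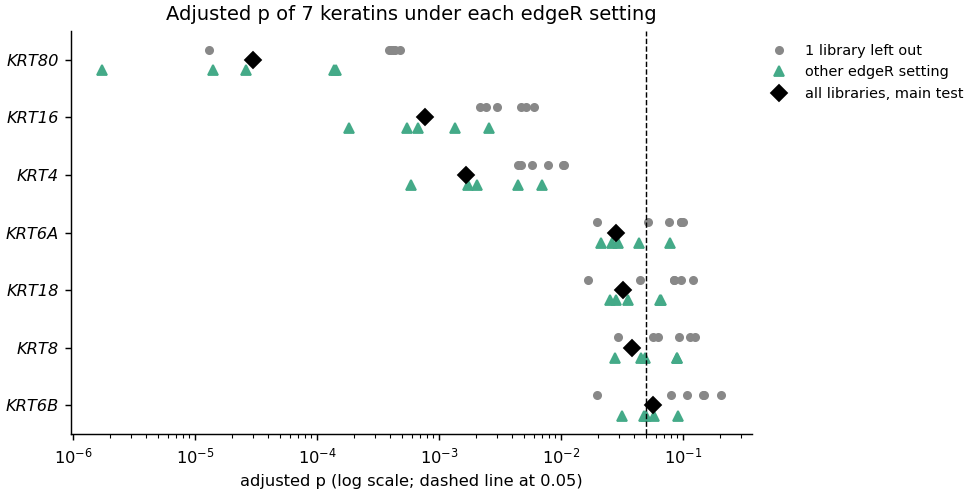
Adjusted p (log axis, dashed line at 0.05) of 7 keratins with all libraries (black), with each library left out in turn (grey) and under the other edgeR settings (green). *KRT80*, *KRT16* and *KRT4* lie below 0.05 in every fit drawn, whereas *KRT6A*, *KRT18*, *KRT8* and *KRT6B* fall on both sides of the line.

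The table also lists 149 keratin pseudogenes, of which 25 were tested. Over all genes tested, 10.6% were called lower and 9.87% higher. Of the pseudogenes, none passed edgeR's quasi-likelihood test at a Benjamini-Hochberg adjusted p under 0.05, the lowest being 0.0933, 2 had an unadjusted p under 0.05, and DESeq2 called 0 of the 9 to which it gave an adjusted p. The most abundant was *KRT8P3* at 19.7 ± 1.66 CPM against 20.7 ± 3.23 CPM. It was followed by *KRT89P* (7.84 ± 1.32 against 6.03 ± 0.357 CPM), and *KRT8P12*, *KRT8P45*, *KRT8P11*, *KRT8P33*, *KRT16P2* and *KRT8P10* also had a mean of at least 1 CPM. The 51 pseudogenes of *KRT8* held 1.31% to 1.66% of its summed counts, the 67 of *KRT18* 0.346% to 0.509% and the 5 of *KRT19* 0.0173% to 0.0555%. Adding these counts to *KRT8* or *KRT18* kept both calls (adjusted p = 0.0394 and 0.0302).

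The 3′ UTRs of the keratins were searched for GATTACT and ACACATC, on the transcript strand, since these words of 7 bases had stood out in an earlier look at the whole data. All 21 tested keratins lacked both words there. Over 13972 tested coding genes, 7.67% held GATTACT and 9.50% ACACATC, but keratin 3′ UTRs are short, with a median of 342 bases against 1249 over these coding genes. Outside the 3′ UTR, *KRT10* held GATTACT, and *KRT6A*, *KRT6B*, *KRT6C*, *KRT7* and *KRT8* held ACACATC. A word found or missing is a description and says nothing of binding.

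Keratin filaments are anchored at desmosomes, which join cells, and hemidesmosomes, which hold cells to the basement membrane. Of 26 partner genes 24 were tested, of which 3 were called lower and 4 higher, beside 10.6% and 9.87% of all genes tested. The higher count was 7 without control replicate 2. Their median log2 fold change was 0.02. Those lower were *PKP4*, a plakophilin-related protein of cell junctions, at 134 ± 6.75 against 104 ± 1.52 CPM (-0.36), *PNN* (-0.24) and the cytolinker *DST* (-0.14). Those higher were the desmosomal cadherin *DSG2*, at 629 ± 10.6 against 803 ± 6.18 CPM (log2 fold change 0.35), the hemidesmosomal collagen *COL17A1*, at 31.1 ± 0.753 against 47.6 ± 3.57 CPM (0.61), and both chains of the hemidesmosomal integrin, *ITGB4* (0.16) and *ITGA6* (0.10). The main proteins that tie keratins to the junction, *DSP* (-0.01), *JUP* (0.06) and *PLEC* (-0.05), were not called, nor were *PKP2*, *PKP3*, *PERP*, *DSC2*, *PPL*, *EVPL*, *EPPK1*, *FAM83H* and *CD151*, all above 100 CPM. Of these, *EPPK1* narrowly missed the threshold (log2 fold change 0.18, edgeR's quasi-likelihood test, Benjamini-Hochberg adjusted p = 0.0502). The groups did not overlap for *EPPK1*, *JUP* and *PKP3*.

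Of 15 intermediate filament genes that are not keratins, 7 were tested, and their log2 fold changes had a median of -0.01. In this list 2 were called lower and 1 higher, where the shares over all genes tested were 10.6% and 9.87%. *NES* (nestin), at 14.6 ± 0.781 against 10.8 ± 0.255 CPM (-0.43), and the nuclear lamin *LMNB2*, at 419 ± 27.3 against 362 ± 5.14 CPM (-0.21), were called lower. *LMNA* was called higher (0.07), and *LMNB1*, at 140 ± 4.65 against 137 ± 4.80 CPM, was not called. *LMNA* was not called without control replicates 1 (adjusted p of the edgeR test 0.0778), 2 (0.0753) or 3 (0.0763) or IGF2BP3 KD replicates 1 (0.144) or 3 (0.149), with no filter (0.189) or with the replicate block (0.0588). *VIM*, the filament of mesenchymal cells, stood at 0.137 ± 0.237 and 0.493 ± 0.274 CPM and was not called. *VIM* had 0, 0 and 24 counts against 30, 12 and 46, and it passed without control replicate 3 (adjusted p = 0.0071), which leaves both control libraries at 0.

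Of 30 transcription factors of epithelia 28 were tested, of which 8 were called lower and 2 higher, against 10.6% and 9.87% of all genes tested. The lower count was 5 without control replicate 2, IGF2BP3 KD replicate 1 or IGF2BP3 KD replicate 2. Their median log2 fold change was -0.07. The 3 lower genes with the smallest p were *ELF3*, at 399 ± 6.76 against 332 ± 5.20 CPM (-0.27), *JUN*, at 107 ± 6.19 against 78.5 ± 3.68 CPM (-0.44), and *EHF*, at 438 ± 12.2 against 387 ± 5.20 CPM (-0.18). *GRHL2* (-0.22), an activator of epithelial genes, was lower too. The higher genes were *CDX2*, the factor of intestinal identity, at 12.6 ± 1.38 against 17.7 ± 0.578 CPM (0.50), and *ETS1* (0.29). *KLF5*, *SP1* and *HNF4A*, all above 100 CPM in IGF2BP3 KD, were not called. Relations between these factors and the keratins were not tested.

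**Figure D5:**
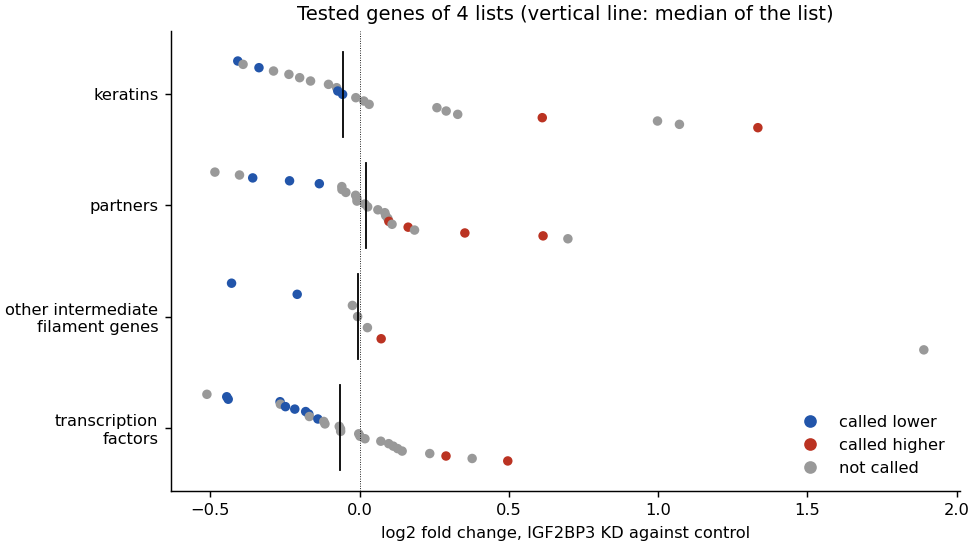
Log2 fold change, IGF2BP3 KD against control, of the tested genes of 4 lists (1 point a gene, spread vertically only to separate points), with the median of each list as a vertical line. All 4 medians lie between -0.07 and 0.02, and called genes lie on both sides of 0 in each list.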

How the data were processed

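RNA was measured in 3 control and 3 IGF2BP3 KD libraries of OE-19 cells. Poly(A) RNA was prepared with a NEBNext Ultra Directional kit and sequenced on an Illumina NovaSeq with paired reads of 150 bases. The authors cleaned the reads (fastp, per the labels), aligned them to hg38 with hisat2 and deposited raw read counts per gene from featureCounts. Tool versions, the strand setting, the annotation release and the handling of reads with several matches are not given in the sources used here.

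Of 60612 rows, 132 repeated rows of 44 identifiers were left out. The test was the two-sided quasi-likelihood test of edgeR 4.0.16 (R 4.3.3), with no block, after TMM scaling and filterByExpr (minimum count 10, minimum total 15). The TMM factors were 0.992 to 0.996 in the control and 1.001 to 1.011 in the IGF2BP3 KD libraries. P-values of the 19778 genes left were adjusted after Benjamini-Hochberg, and an adjusted p under 0.05 was a call. CPM values are TMM-scaled, and CPM per kb uses the MANE Select transcript of GENCODE v44. Tables and figures were made in Python 3.11.15 with pandas 2.3.3, numpy 2.4.6 and matplotlib 3.10.9.

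Every tested keratin is named. Untested ones are named from 10 counts in a library, pseudogenes from a mean of 1 CPM, and genes of other lists by the 3 smallest p in each direction or a level above 100 CPM. Further genes of those lists (*KRT5*, *SERPINB5*, *COL1A1* and other markers, *TP63*, *VIM*) were named after their values were seen. The members and lists were chosen with earlier results of these data known. Alternatives were DESeq2 1.42.0, RLE scaling, each library left out, the replicate block, no filter, a filter of 10 counts in each library, coding genes alone, other thresholds and summed near-identical genes. The labels do not say whether replicate numbers pair the libraries, and same-numbered libraries gave no sign of it.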

Additional observations from a re-analysis of the deposited data

How the results depend on the processing

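DESeq2, RLE scaling, at least 10 counts in every library and coding genes alone gave counts of called keratins, partner genes and other filament genes within 1.5 times of those reported. The number of keratins called lower was 2 in place of 4 with no filter on low counts, with the replicate block and at an adjusted p under 0.01, 0 where a log2 fold change of 1 in size was also asked for, and 2 to 5 with 1 library left out, with 2 calls without control replicates 2 or 3 or IGF2BP3 KD replicates 2 or 3. The number called higher was 1 in place of 2 with no filter, at 0.01 and at the fold limit of 1, and 1 to 2 with 1 library left out. The partner genes called lower were 0 at the fold limit, and those called higher 0 at that limit and 4 to 7 with 1 library left out (7 without control replicate 2). Of the other filament genes, 0 were called lower at the fold limit, and 0 in place of 1 higher with no filter, with the replicate block, at 0.01, at the fold limit, and without control replicates 1 or 2 or IGF2BP3 KD replicates 1 or 3 (range 0 to 1, where the 1 without control replicate 3 is *VIM* and not *LMNA*). Of the transcription factors, 5 in place of 8 were called lower at 0.01 and 0 at the fold limit, with 5 to 8 when 1 library was left out (5 without control replicate 2 or IGF2BP3 KD replicates 1 or 2). Those called higher were 4 over coding genes alone and 0 at the fold limit. *IGF2BP3* ranged from -3.10 to -3.00 with 1 library left out. The sum of *KRT6A*, *KRT6B* and *KRT6C* had a log2 fold change of -0.12. *KRT6B* carries that sum, so it says nothing of the direction of *KRT6A* alone. With the replicate block *KRT8* (adjusted p = 0.0896) and *KRT18* (0.0642) were no longer called, and no other keratin changed its call; deviations of same-numbered libraries correlated at -0.09 to -0.04 over 14830 genes, so the numbers show no pairing. Stricter thresholds lower counts by construction, and for the other changes the cause was not tested. Keratins with few counts had wide 95% intervals, such as -1.12 to 1.09 for *KRT2* with 13 to 40 counts. The smallest difference detectable at this depth was not computed. The sum of *KRT16* with its pseudogenes was added after seeing the data.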
